A study of Saccharomyces cerevisiae with 12 samples.

Results

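The genes for the subunits of the nuclear RNA polymerases of budding yeast were described in air and after 18 h of hypoxia, in wild-type and set4Δ cells. Members were taken by name, as every gene called RPA, RPB, RPC or RPO followed by digits, with RET1 added, which gave 32 of 6078 genes. By textbook membership, 7 encode subunits of RNA polymerase I (Pol I) alone, 7 of RNA polymerase II (Pol II), 10 of RNA polymerase III (Pol III), 2 of Pol I and Pol III, and 5 of all 3 enzymes. The name rule also took RPO41, the polymerase of mitochondria, which is a separate enzyme and is given apart. All 32 genes were present in the 4 deposited tables. The filter on low values removed no gene with reads from any comparison, so passing it says nothing about the members.

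RNA came from cells of the haploid strain BY4741, whose wild-type form cannot make histidine, leucine, methionine or uracil, grown in YPD at 30 °C to mid-log phase. Of 12 libraries, there were 3 each of wild type in air, wild type in hypoxia, set4Δ in air and set4Δ in hypoxia, and the set4Δ cells carry HIS3MX in place of SET4, a cassette that restores histidine synthesis and cannot be told apart from the deletion. Hypoxia was set up in sealed anaerobe pouches. The series asks what loss of Set4, a SET domain protein, does to gene expression in either condition. SET4 had 161, 217 and 199 normalized counts in the wild-type libraries in air, 5291, 4898 and 8574 in hypoxia, and at most 26.0 in any set4Δ library.

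Libraries held 18786176 to 27572406 reads assigned to genes. A normalized count is the number of reads of a gene divided by a size factor of its library, so it measures RNA relative to the other genes of that library. From bulk cultures, fewer cells of a kind and less RNA per cell cannot be told apart, and protein was not measured. Size factors were set separately for each table, so tests stayed within a table. Nothing in the labels says that the 3 libraries of a group came from separate cultures, so that p-values measure the spread between these libraries, which may be technical. In the comparison of hypoxic cells, libraries 3 of both genotypes deviated together across genes (correlation of deviations 0.73), as did wild-type library 2 with set4Δ libraries 1 and 2 (0.75 and 0.71).

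Pol I makes the large ribosomal RNA precursor, Pol II makes messenger RNA, and Pol III makes transfer RNA and 5S ribosomal RNA. The enzymes share a common core. Each has a largest and a second largest subunit that form the active site, a pair of alpha-like subunits that start assembly, a stalk of a pair of subunits, a zinc-ribbon subunit, and a set of small subunits common to all. Pol I and Pol III also keep built-in subunits that resemble the Pol II initiation factors TFIIF and TFIIE. Yeast cells are known to turn down ribosome production when growth is limited, and genes for ribosome assembly and for Pol I and Pol III often carry the upstream motifs PAC (polymerase A and C box) and RRPE (ribosomal RNA processing element).

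The 300 bases before each start codon were read from the R64 reference and searched on both strands for PAC as GATGAG and for RRPE as AAAAATTTT. PAC and RRPE cannot share bases with each other, but copies of the same motif can, as in AAAAATTTTT, which holds RRPE on both strands. PAC was found before 6 of 7 Pol I genes (all but RPA12), 8 of 10 Pol III genes (all but RPC17 and RPC11) and both genes shared by Pol I and Pol III. It was found before 0 of 7 Pol II genes, 0 of 5 common subunit genes and not before RPO41, against 18.8% of 5816 nuclear protein-coding genes. RRPE stood before 6 of 7 Pol I genes, 5 of 10 Pol III genes, 2 of 7 Pol II genes and 2 of 5 common subunit genes, against 7.46% of all. A match is a description of the sequence and was not tested as a site.

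**Figure D1:**
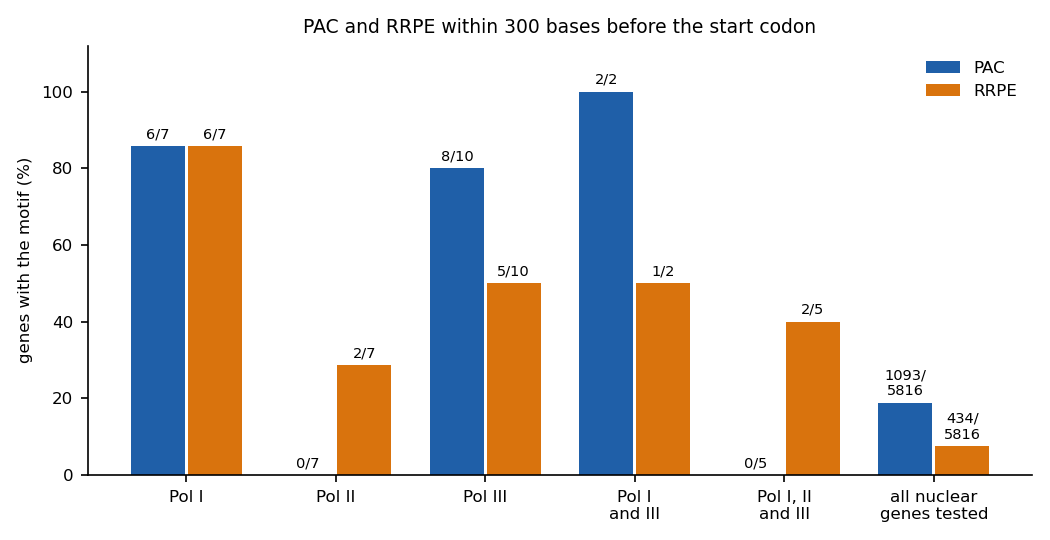
Share of genes (%, y axis) with PAC (blue) or RRPE (orange) within 300 bases before the start codon, by enzyme (x axis), with the number of genes over each bar. PAC stands before 6 of 7 Pol I and 8 of 10 Pol III genes and before 0 of 7 Pol II genes, and 18.8% of all nuclear genes tested have it.

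Stretches from these promoters are shown because PAC was found before most Pol I and Pol III genes and before no Pol II gene. Capitals mark PAC (GATGAG, or CTCATC on the other strand) and RRPE (AAAAATTTT or AAAATTTTT), and each stretch is given 5′ to 3′ on the strand of its gene. The first 3 are from Pol I genes, of which RPA190 and RPA43 lie back to back on chromosome XV and are read in opposite directions.
RPA190 (chrXV:960754-960835, + strand): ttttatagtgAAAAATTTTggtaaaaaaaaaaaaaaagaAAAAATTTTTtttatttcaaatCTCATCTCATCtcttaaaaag
RPA43 (chrXV:960320-960374, - strand): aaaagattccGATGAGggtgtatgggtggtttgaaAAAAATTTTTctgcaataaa
RPA135 (chrXVI:581285-581342, - strand): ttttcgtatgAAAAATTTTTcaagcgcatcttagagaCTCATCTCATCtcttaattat
The next 3 are from Pol III genes, of which RPC31 has PAC alone.
RET1 (chrXV:733559-733596, - strand): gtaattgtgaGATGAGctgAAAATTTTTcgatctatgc
RPC25 (chrXI:176647-176685, - strand): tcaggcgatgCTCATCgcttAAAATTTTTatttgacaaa
RPC31 (chrXIV:348589-348614, - strand): aaatagtttcCTCATCgcagcaacct
Both alpha-like genes of Pol I and Pol III have PAC.
RPC40 (chrXVI:746903-746953, - strand): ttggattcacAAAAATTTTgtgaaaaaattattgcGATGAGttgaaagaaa
RPC19 (chrXIV:412634-412659, + strand): attcacctgcGATGAGctggaaaaaa
The Pol II genes RPO21 and RPB9 have RRPE and no PAC in the window.
RPO21 (chrIV:210626-210654, - strand): caaatttcaaAAAAATTTTaccttttctt
RPB9 (chrVII:374932-374960, - strand): gggtaagttgAAAAATTTTgttttggtga

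In hypoxia most of these genes had lower RNA levels in wild-type cells. By limma with an adjusted p of at most 0.05, 27 of the 31 nuclear members fell and 0 rose, where 39.5% of the 6033 genes tested fell and 40.0% rose. The other 4 were RPA14, RET1, RPC37 and RPC82, of Pol I and Pol III. When the log2 fold change also had to reach 1 in size, 8 members fell and 0 rose, against 14.4% and 18.1% of all genes. The median log2 fold change was -0.96 over the Pol I genes, -0.69 over the Pol II genes and -0.36 over the Pol III genes, beside 0.01 over all genes tested. It was -0.92 over the pair shared by Pol I and Pol III and -0.77 over the 5 common subunits.

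**Figure D2:**
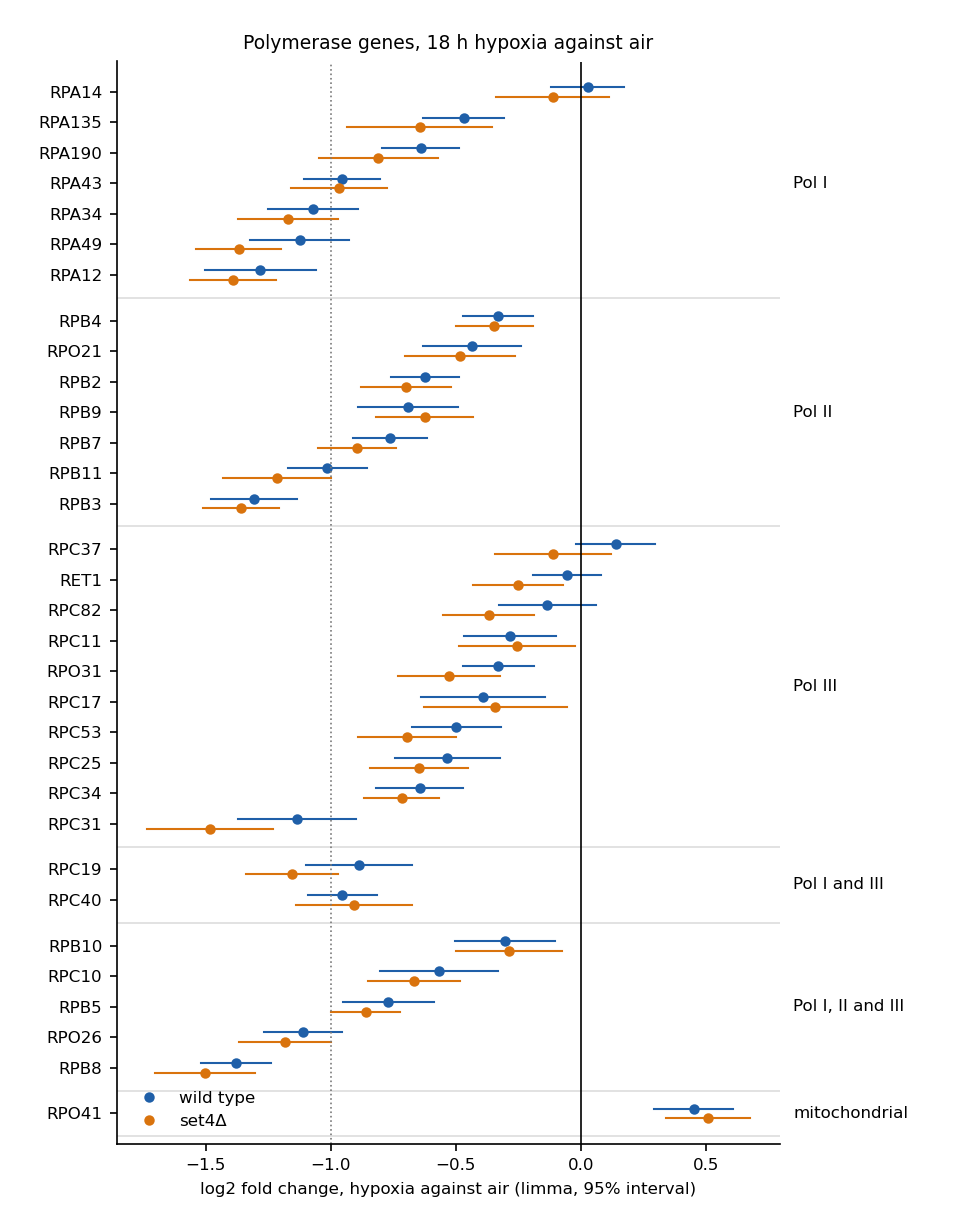
Log2 fold change (x axis, points) with its 95% interval from limma (lines) for each gene (y axis), hypoxia against air, in wild-type (blue) and set4Δ (orange) cells, sorted within each enzyme. The nuclear genes lie between -1.50 and 0.14, RPC37 and RPA14 lie near 0, RPO41 lies above 0 in both genotypes, and the dotted line marks -1.

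Among the Pol I genes, RPA12, the zinc-ribbon subunit that helps the enzyme cut its transcript, had 1265, 1094 and 1186 normalized counts in air and 445, 472 and 542 in hypoxia. Every hypoxic library was below every aerobic one, and the log2 fold change was -1.28 ± 0.10 (standard error) with an adjusted p of 5.3e-06 in limma. RPA49 and RPA34, the TFIIF-like pair, fell by 1.12 and 1.07 on the log2 scale. RPA43, the stalk subunit to which the initiation factor Rrn3 binds, fell by 0.96.

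The core of Pol I moved less. RPA190, the largest subunit, had 20189, 18919 and 18847 normalized counts in air and 12729, 12222 and 12193 in hypoxia, a log2 fold change of -0.64 (95% interval -0.80 to -0.49). RPA135, the second largest subunit, fell by 0.47, but its log2 fold change was 0.03 after quantile normalization of the libraries. That setting moved RPA135 up, while it moved the median of all genes down, from 0.01 to -0.14, and the cause was not tested. RPA14, the second stalk subunit, had 1505, 1455 and 1561 normalized counts in air and 1580, 1472 and 1554 in hypoxia. These groups overlap, and the interval of its log2 fold change ran from -0.12 to 0.17. The reading frame of RPA14 overlaps the annotated YDR157W on the same strand, and reads in the shared stretch could have been left out or split by the counting.

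All 7 Pol II genes fell. RPB3, an alpha-like subunit, had 1569, 1452 and 1424 normalized counts in air and 602, 562 and 631 in hypoxia, so that the level in hypoxia was 40.4% of that in air (log2 fold change of -1.31 ± 0.07 by standard error, with an adjusted p of 1.2e-06 in limma). Its partner RPB11 fell by 1.01. The stalk subunits parted, with RPB7 at -0.76 and RPB4 at -0.33, and the zinc-ribbon subunit RPB9, which serves fidelity, was at -0.69.

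RPB2, the second largest subunit of Pol II, fell by 0.62. RPO21, the largest subunit, which carries the repeat domain that is phosphorylated during transcription, had 11976, 12419 and 12139 normalized counts in air and 10106, 8634 and 8339 in hypoxia. The groups do not overlap, and the log2 fold change was -0.44 (95% interval -0.63 to -0.24), but it was 0.02 after quantile normalization.

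Of the 10 Pol III genes, 7 fell and 3 did not pass the test. RPC31, of the TFIIE-like trimer that helps the enzyme open DNA, had 557, 534 and 480 normalized counts in air and 262, 233 and 218 in hypoxia, which is 45.5% of the level in air (log2 fold change -1.14, adjusted p = 1.5e-05 from limma). Its partner RPC34, which contacts the initiation factor Brf1, fell by 0.64. The trimer member RPC82 had 1812, 1777 and 1731 in air and 1455, 1611 and 1798 in hypoxia, where hypoxic library 3 lies within the aerobic range. Its log2 fold change of -0.13 did not pass the test, and without that library it was -0.21 and passed.

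RET1, the second largest subunit of Pol III, had 3997, 4003 and 3987 normalized counts in air and 4016, 3711 and 3820 in hypoxia. The groups overlap, the log2 fold change was -0.05 (95% interval -0.19 to 0.08), and its sign turned with scaling to equal totals (0.03) and with quantile normalization (0.04). RPO31, the largest subunit, fell by 0.33. RPC37, of the TFIIF-like pair, had 825, 801 and 764 in air and 862, 850 and 919 in hypoxia, every hypoxic value above every aerobic one, with a log2 fold change of 0.14 that did not pass the test (adjusted p = 0.095 from limma). Its partner RPC53 fell by 0.50. With scaling to equal totals RPC37 was at 0.22 and passed.

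The remaining Pol III genes fell by less than 1 on the log2 scale. The stalk subunits RPC25 and RPC17 fell by 0.53 and 0.39, and the zinc-ribbon subunit RPC11, which serves cleavage and termination, by 0.28.

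Of the shared subunits, RPB8 gave the largest fall of all 32 genes. It had 2970, 3013 and 3097 normalized counts in air and 1108, 1199 and 1185 in hypoxia, 38.5% of the level in air (log2 fold change of -1.38 ± 0.06 by standard error, with an adjusted p of 3.8e-07 in limma). RPO26 fell by 1.11, RPB5 by 0.77, RPC10 by 0.57 and RPB10 by 0.30, so that the common subunits did not move by an equal amount. RPC40 and RPC19, the alpha-like pair of Pol I and Pol III, fell by 0.95 and 0.89.

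RPO41, the mitochondrial polymerase, moved the other way. It had 3479, 3760 and 3759 normalized counts in air and 5058, 4711 and 5260 in hypoxia, 137% of the level in air (log2 fold change 0.45, adjusted p = 0.00039 from limma). Every hypoxic library was above every aerobic one. Of the 2 genes listed as its factors, both named after their values were seen, MTF1, which lets the enzyme open its promoters, fell by 0.73 and MTF2 rose by 0.44 on the log2 scale.

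**Figure D3:**
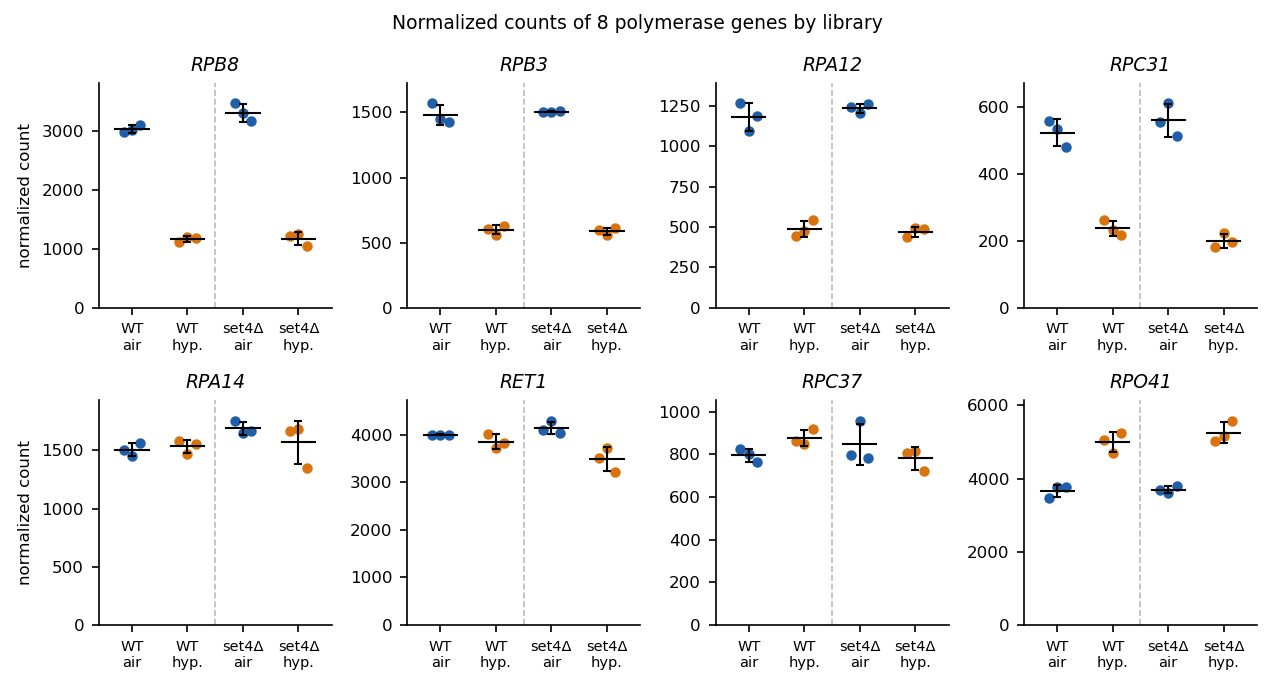
Normalized counts (y axis, from 0) of 8 genes in each library (points) of the 4 groups (x axis), with the mean and SD of 3 libraries (black). Wild-type and set4Δ libraries, parted by the dashed line, were normalized in separate tables, so levels are compared only on 1 side of it. RPB8, RPB3, RPA12 and RPC31 lie lower in hypoxia without overlap, and RPO41 lies higher.

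In set4Δ cells 29 of the 31 nuclear genes fell in hypoxia and 0 rose by adjusted p, where 39.8% of the 6058 genes tested fell and 39.6% rose. The exceptions were RPA14 at -0.11 and RPC37 at -0.11. With the fold required, 9 fell and 0 rose, against 15.5% and 18.6% of all genes, and the 9 were the 8 genes of the wild-type list and RPC19. The medians were -0.97 for Pol I, -0.70 for Pol II and -0.45 for Pol III. RPO41 rose by 0.51 on the log2 scale.

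RPB8 again had the largest fall. It had 3462, 3305 and 3156 normalized counts in air and 1208, 1254 and 1048 in hypoxia, a log2 fold change of -1.50. RPC31 had 555, 611 and 514 in air and 182, 222 and 195 in hypoxia, a log2 fold change of -1.48. RPB3 had 1504, 1507 and 1507 in air and 596, 556 and 609 in hypoxia, a log2 fold change of -1.36. In each of these genes the groups lie far apart.

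RET1 and RPC82, which did not pass in wild-type cells, fell in set4Δ cells by 0.25 and 0.37. RET1 had 4092, 4294 and 4036 normalized counts in air and 3514, 3712 and 3213 in hypoxia, without overlap. The call of RET1 was lost without set4Δ air library 2 (adjusted p = 0.065 from limma), and those of RPC17, RPC11 and RPB10 were lost without 1 or another of the libraries. RPA135 was at -0.64 and RPO21 at -0.48, and after quantile normalization at -0.20 and -0.08, where neither passed.

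Subunits that hold the same place in different enzymes were also compared within each library, per kilobase of coding length, since a ratio within a library does not depend on its size factor. Over 17 such pairs, the ratio in hypoxia did not overlap that in air for 14 pairs in wild-type cells and 10 in set4Δ cells. The same held for 82.4% and 81.8% of every pair of genes tested, so the count says nothing particular to these pairs. With 3 libraries against 3 the smallest exact permutation p is 0.1, so single pairs cannot pass, and the ratios are given as a description.

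The widest shift was between the zinc-ribbon genes. RPA12 had 2.15, 2.00 and 2.21 times the counts per kilobase of RPC11 in wild-type air libraries and 1.00, 1.06 and 1.12 times in hypoxia. The change of a ratio does not depend on the lengths used, but its level in either condition does. In set4Δ cells the ratio was 2.30, 2.22 and 2.35 in air and 0.93, 0.99 and 1.24 in hypoxia. Among second largest subunits, RPB2 stood at 2.32, 2.39 and 2.32 times RET1 in air and at 1.47, 1.65 and 1.62 times in hypoxia in wild type. RPA135 to RET1 went from a mean ratio of 3.56 to 2.67.

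In other places the direction varied. The ratio of RPA43 to RPC25, stalk genes of Pol I and Pol III, went down from 2.74 to 2.05 in wild type. That of RPA14 to the Pol II stalk gene RPB4 went up from 1.69 to 2.17 in wild type. That of RPC40 to RPB3, the alpha-like genes of Pol I and III and of Pol II, went up from 3.12 to 3.98. RPC19 to RPB11 was at 0.92 in air and 1.00 in hypoxia with overlapping groups, and RPO21 to RPO31 at 1.90 and 1.76, also overlapping.

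**Figure D4:**
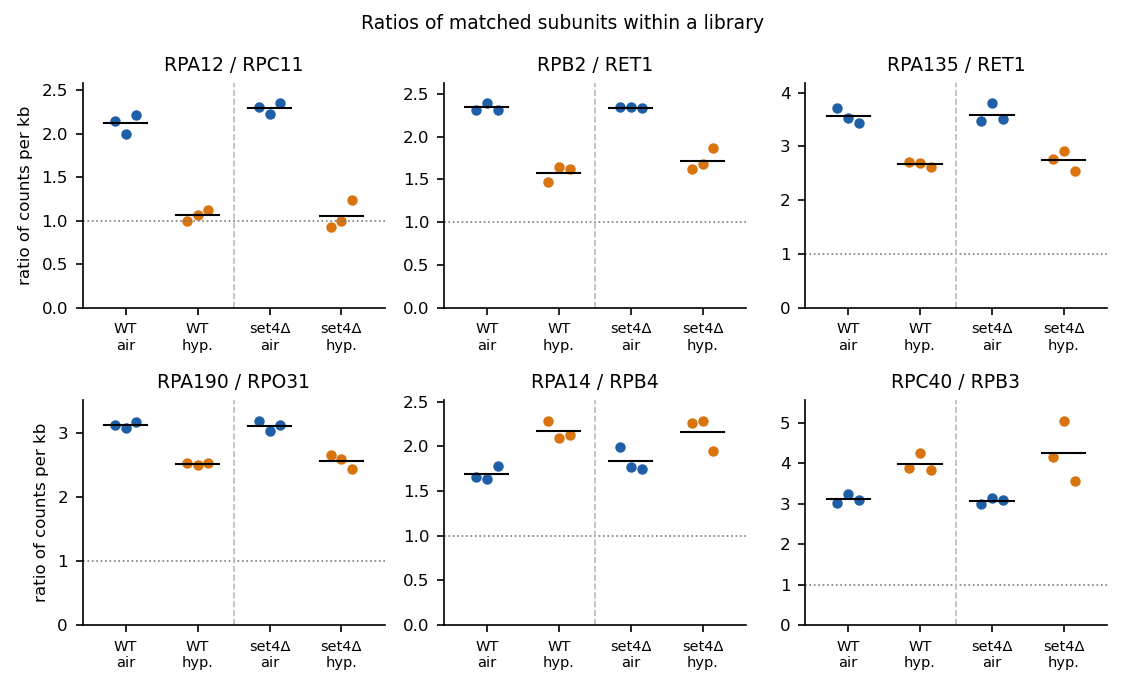
Ratio of counts per kilobase between subunits of the same place (y axis, from 0) in each library (points) of the 4 groups (x axis), with the mean (bar) and the line of equal counts per kilobase (dotted). RPA12 to RPC11 goes from 2.12 in wild-type air to 1.06 in hypoxia, and RPA14 to RPB4 from 1.69 to 2.17.

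The mean levels of the Pol I and Pol II genes came closer to that of the Pol III genes in hypoxia. The mean log2 level of the Pol II genes exceeded that of the Pol III genes by 0.99 to 1.08 in the wild-type air libraries and by 0.68 to 0.71 in hypoxia. For Pol I against Pol III the difference was 1.57 to 1.59 in air and 1.15 to 1.19 in hypoxia. For Pol I against Pol II it was 0.49 to 0.58 in air and 0.44 to 0.51 in hypoxia, which overlap. In set4Δ cells Pol II exceeded Pol III by 1.01 to 1.11 in air and by 0.72 to 0.89 in hypoxia. There, Pol I exceeded Pol II by 0.50 to 0.53 in air and by 0.30 to 0.49 in hypoxia. These do not overlap, but the nearest values were 0.505 in air and 0.491 in hypoxia. Ratios of single genes also did not overlap for 82.4% of pairs in wild-type and 81.8% in set4Δ cells. A difference between the genotypes in these enzyme levels was not tested. The levels are not corrected for length and are used only for the change within each pair of enzymes.

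Per kilobase of coding length in wild-type air, the common subunit genes RPB8 (6863 ± 146 normalized counts per kilobase, SD, n = 3) and RPB10 (6048 ± 246) stood highest, and their difference is larger than their spread between libraries. RPC40 followed with 4821 ± 193. The Pol III genes filled the lower end, from RPC11 at 1475 ± 75.7 down to RPC31 at 692 ± 52.1. Neighbours there lay within their spread, as RPC25 at 779 ± 68.6 and RPC17 at 776 ± 69.7. In hypoxia RPB10 (4911 ± 514) and RPA14 (3708 ± 136) stood highest, and RPC31 remained lowest at 315 ± 29.4. Only coding bases counted as length, 441 for RPB8 and 213 for RPB10. The spread between libraries does not measure how that choice affects the order of genes.

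Pooled over enzymes, members with PAC or RRPE did not have clearly larger falls than members without. In wild type the 16 members with PAC had a median log2 fold change of -0.59 and the 16 without it -0.66, while over all genes the medians were -0.14 with PAC and 0.03 without. Among members PAC largely follows the enzyme (0 of 7 Pol II and 0 of 5 common subunit genes), so motif and enzyme cannot be told apart. RPO41, which rose, has neither motif and is counted here among the members without PAC and without RRPE. Within Pol III the median was -0.42 for the 8 genes with PAC and -0.34 for RPC17 and RPC11 without it. Within Pol I it was -0.80 for the 6 genes with PAC, and RPA12 without it was at -1.28. For RRPE the medians of members were -0.64 with and -0.60 without, and over all genes -0.52 and 0.05. Across the 31 nuclear members, Spearman's correlation of log2 fold change with coding length was 0.13, and across all genes -0.03, where genes are not independent replicates. The 6 genes of the largest and second largest subunits had a median of -0.45 and the 25 others -0.76.

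Genes that work with the polymerases were read from lists chosen by function, with earlier results of these data known. All 13 Pol II elongation factors fell in wild-type cells by adjusted p, with a median of -0.76, and ELF1, SPT6 and SPT16 fell by at least 1 on the log2 scale. These 3 encode a factor that travels with Pol II and histone chaperones of transcribed genes. Of 18 Pol II general initiation factors 6 rose and 4 fell, with a median of 0.06. Of 8 factors for assembly and import of the enzymes 4 rose and 1 fell. Over all genes 40.0% rose and 39.5% fell, so the shares of these last 2 lists that rose lie near the background and alone say nothing of the lists. The shares that fell, 4 of 18 and 1 of 8, lie below the background in short lists, which was not tested.

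Of 9 initiation factors of Pol I 2 rose and 3 fell. Of 10 factors of Pol III, with its repressor MAF1 among them, only MAF1 rose and 3 fell. Both lists stand beside the same 40.0% and 39.5% of all genes. The genes named here were chosen after their values were seen. Among the Pol I factors, RRN3, which brings Pol I to its promoter, rose by 0.63 on the log2 scale. RRN10 rose by 0.58, but in set4Δ cells it was at 0.07 and did not pass. RRN9, HMO1 and RRN6 fell by 0.59, 0.53 and 0.47, and 4 did not pass. Among the Pol III factors, MAF1, the repressor of Pol III, rose by 0.47. BRF1, a subunit of the Pol III factor TFIIIB, fell by 0.71, TFC8 by 0.66 and TFC4 by 0.36, and 6 did not pass. SPT15, the TATA-binding protein that serves all 3 enzymes, was also chosen after its values were seen and fell by 0.71.

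Genes for ribosome assembly and for ribosomal proteins fell too, where 39.5% of all genes fell and 40.0% rose. Of 53 ribosome assembly genes picked by the names UTP, NOP and RRP, 45 fell and 1 rose, with a median of -0.53 and NOP1, NOP56 and RRP1 at -1.46, -1.14 and -1.14. Of 138 cytoplasmic ribosomal protein genes 137 fell and 1 rose, with a median of -1.59 and RPL1A at -2.35. Many ribosomal protein genes have near-identical copies, between which reads may be split.

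Between set4Δ and wild-type cells no polymerase gene passed the test. In hypoxia limma called 0 of 32 members, where 1.21% of the 5875 genes tested were called. An unadjusted limma p under 0.05 was found for 2 members, RPC37 and RPC31, and for 774 of all genes. In 6 of the 32 members the groups did not overlap, against 19.6% of all genes in either direction. All 6 were lower in set4Δ cells, where 590 of all genes were lower without overlap and 562 were higher. They were RPA190 and RPA49 of Pol I and RPO31, RET1, RPC37 and RPC31 of Pol III. edgeR and DESeq2 on reads recovered from the normalized counts, both added after the data were seen, also called 0 members.

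RPC31 had 257, 230 and 214 normalized counts in wild-type hypoxic libraries and 175, 213 and 190 in set4Δ ones. The lowest wild-type and highest set4Δ values nearly touch. The log2 fold change was -0.27 (95% interval -0.55 to -0.0028, adjusted p = 0.37 from limma). Without single libraries it ran from -0.35 to -0.20. RPC37 had 846, 837 and 899 in wild type and 780, 782 and 703 in set4Δ, a log2 fold change of -0.19 (adjusted p = 0.35 from limma). RET1 had 3943, 3655 and 3737 against 3389, 3557 and 3133, at -0.17. RPC19 was at -0.23 with overlapping groups.

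The median over the Pol I genes was -0.12, over the Pol II genes -0.03 and over the Pol III genes -0.13, beside -0.01 over all genes. The ribosome assembly genes stood at -0.14 in the same comparison and the ribosomal protein genes at 0.07. The intervals of the 32 members reached from -0.55 to 0.36.

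In air limma called 0 of 32 members, where 0.0516% of 5814 genes were called. An unadjusted limma p under 0.05 was found for 2 members and for 280 of all genes. RPB11, RPA14, RPB7 and RPC82 were higher in every set4Δ library and RPC11 lower, against 4.52% and 5.50% of all genes. RPB11, the largest of these, was at 0.14 (adjusted p = 0.99 from limma). edgeR and DESeq2 also called 0 members.

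**Figure D5:**
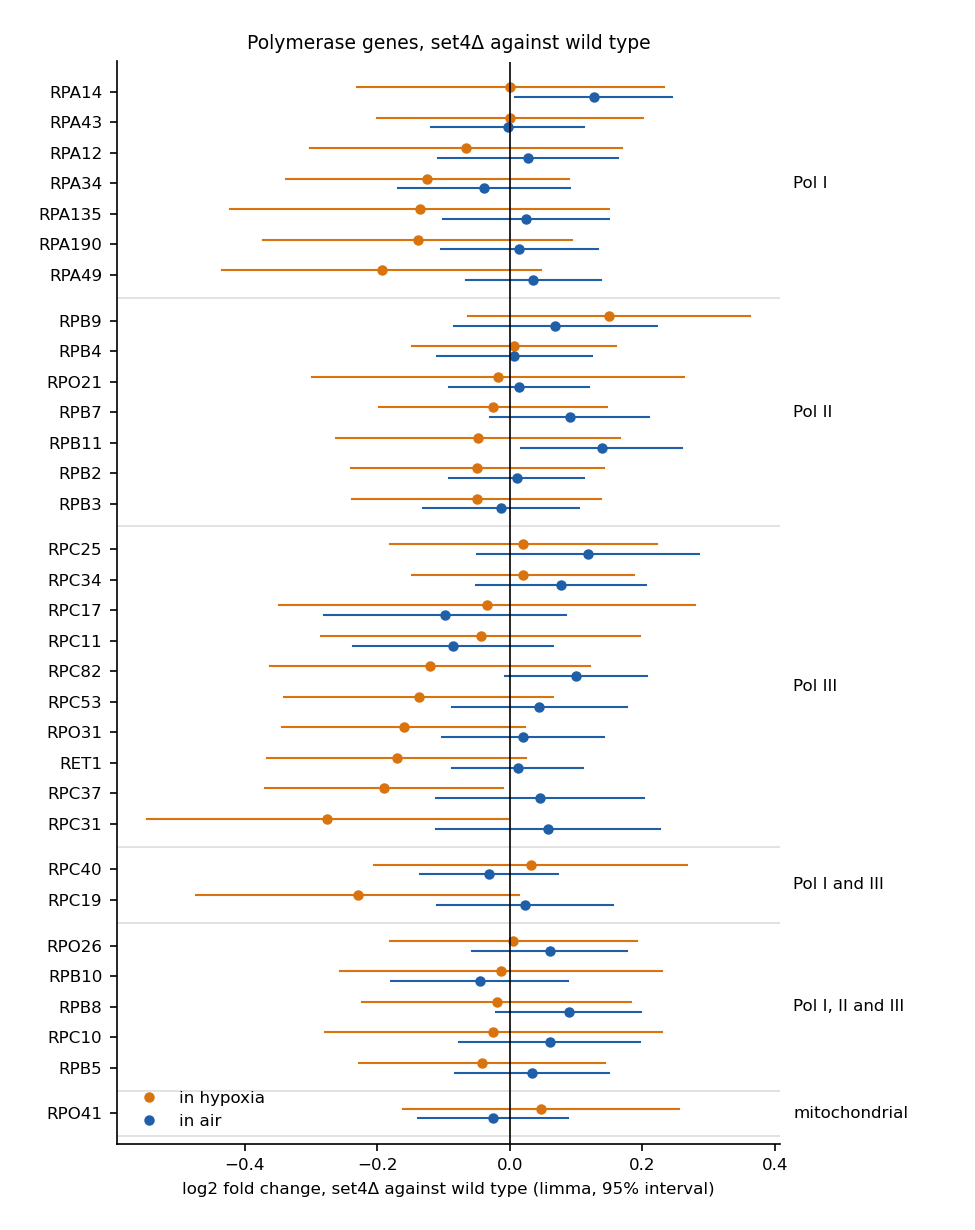
Log2 fold change of set4Δ against wild type (x axis, points) with its 95% interval from limma (lines) for each gene (y axis), in hypoxia (orange) and in air (blue). Point estimates lie between -0.27 and 0.15 in hypoxia and between -0.10 and 0.14 in air, and no gene was called.

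The hypoxia responses of the 2 genotypes were then set against each other in 1 fit over 12 libraries. No member was called for a difference (0 of 32 by limma, against 1.34% of 6025 genes), and edgeR and DESeq2 called 0. An unadjusted limma p under 0.05 was found for 3 members and for 717 of all genes. Of the 32 members 26 had a lower log2 fold change in set4Δ cells, as did 3262 of the 6025 genes. RPC31 differed by -0.35 (95% interval -0.67 to -0.02, adjusted p = 0.37 from limma), RPC19 by -0.27 and RPC37 by -0.25. The medians were -0.14 for Pol I, -0.05 for Pol II and -0.20 for Pol III, and -0.17 for the ribosome assembly genes.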

How the data were processed

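RNA was sequenced from 12 libraries, with ribosomal RNA removed and stranded library preparation. Per the labels, the authors used Trimmomatic 0.36 for trimming, STAR 2.5.2b for alignment and featureCounts (Subread 1.5.2) for counts. The deposited signal values are gene counts over DESeq2 size factors, set within each of 4 tables of 6 libraries. The sources used here do not give the genome build, strand setting or handling of multiply placed reads. The tables also hold the authors' log2 fold changes and p-values, deposited with them, which were not used.

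All 24 library columns returned to whole reads (100% of values within 0.01) with 1 factor each. The third wild-type column for air held 3 values more than genes, and the aligned copy in the wild-type response table was used (99.9% of its values are in that library), leaving out 8 genes. Tables exchange numbers 1 and 3 of replicates, and libraries were matched by their reads. Entries that name no gene, at most 3 per table and 0.0608% of a library's signal, were left out.

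Each comparison used limma 3.58.1 (R 4.3.3) with a variance trend on log2(value + 1), and genes needed a mean of 10 or more in 1 of the groups. The fold changes are on that scale. Adjusted p-values are Benjamini-Hochberg over all genes tested, called at 0.05 or below. For responses the first call rule also asked for a log2 change of 1 or more in size. The difference of responses used 4 groups in 1 fit. The test within a table was checked on simulated counts with 200 genes changed. These were drawn independently for each library, so they do not show how the test behaves where libraries deviate together. The difference of responses was not simulated. The members and lists were chosen with earlier results of these data known. Any member may be named, and from each list up to 3 genes with the largest change among those called with the fold and without overlap. RRN3, RRN6, RRN9, RRN10, HMO1, MAF1, BRF1, TFC4, TFC8, SPT15, MTF1 and MTF2 lie outside that rule and were named after their values were seen. Alternatives were other pseudocounts, filters, scalings, robust limma, a replicate block, leaving out libraries, and edgeR 4.0.16 and DESeq2 1.42.0 on recovered reads. Dropping the filter changed no number of genes tested or called. Members were placed on R64 with RefSeq annotation by name, which matched 32 of 32 and 5942 of 6033 genes of the wild-type table. Python 3.11.15, pandas 2.3.3, numpy 2.4.6, scipy 1.17.1 and matplotlib 3.10.9 were used.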

Additional observations from a re-analysis of the deposited data

How the results depend on the processing

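Counts of called members stayed within 1.5 times in every setting run, from 7 to 8 in the wild-type response and from 9 to 10 in the set4Δ response without single libraries, and at 0 in the other comparisons. Medians in the wild-type response moved with scaling to equal totals (Pol I -0.87, Pol II -0.61, Pol III -0.28), with quantile normalization (Pol II -0.87, Pol III -0.53) and with shared subunits counted in each enzyme (Pol II -0.73, Pol III -0.53). Without single libraries the Pol II median ran from -0.76 to -0.65. In the set4Δ response the Pol II median was -0.62 with equal totals, -0.76 with quantile normalization and -0.78 with shared subunits, where Pol III was at -0.67, and it ran from -0.73 to -0.67 without single libraries. Without single libraries the Pol II median of set4Δ against wild type ran from -0.053 to -0.0054 in hypoxia and from 0.0076 to 0.038 in air, and that of Pol III in air from -5.9e-05 to 0.085. In the wild-type response quantile normalization turned RPA135 (0.0286), RPO21 (0.0217), RPA14 (-0.0332) and RET1 (0.045), and equal totals turned RET1 (0.0302). The cause was not tested. In the set4Δ response RPC17 lost its call in 5 settings and RPC11 in 9, among them edgeR and DESeq2, while RET1 and RPB10 each lost theirs in 3. In air and within both responses, same-numbered libraries did not deviate together (correlations from -0.26 to 0.22). In hypoxia, libraries 2 and libraries 3 of the genotypes did (0.71 and 0.73), and libraries 1 did not (0.03). Wild-type library 2 there also went with set4Δ library 1 (0.75), so the numbers pair the hypoxic libraries only in part. With a replicate block the same number of members passed with the fold (8 and 9), RPC17 and RPC11 lost their calls in the set4Δ response (adjusted p 0.051 and 0.055 from limma), and 436 genes in place of 71 were called in hypoxia, with 0 members among them. DESeq2 called 245 genes in hypoxia, 9 in place of 3 in air and 172 in place of 81 for the difference of responses, none of them members.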
